A study of Drosophila melanogaster with 4 samples.

Results

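The regions described here are stretches of chromatin called as enriched for LSD1 along the euchromatic part of 2L, the left arm of chromosome 2 of Drosophila melanogaster. They were chosen by position alone: a region of the combined list of the study counted when it lay on 2L and started at or before base 21011544, which leaves out the 2 Mb at the centromere end of the 23011544 bp arm. This gave 1533 regions of 9018 in the whole list. All positions are those of release 5 of the fly genome, counted from 1, with the telomere of 2L at the low end. Strain and stage were the same for every sample: embryos of the wild-type strain Oregon-R, aged 14 to 16 h and crosslinked with 1.8% formaldehyde. There were 2 samples immunoprecipitated with the LSD1 antibody Q3430 (ChIP) and 2 input samples of genomic DNA, 1 input for each ChIP, and whole embryos mix all cell types of that stage. Each list gives called regions by start and end, with 1 score per region: 680 regions of ChIP replicate 1 and 431 of ChIP replicate 2 lay on this stretch. Read depth is unknown. The score lies on a log2 scale, and enrichment is given as the fold it corresponds to (2 to the power of the score), on the scale of its own list.

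LSD1, known in the fly as Su(var)3-3, is an amine oxidase and demethylates histone H3 at lysine 4. It works with the corepressor CoREST and is known in flies for silencing genes and for its part in setting up heterochromatin in the early embryo. Methylation of this lysine marks active promoters and enhancers, so LSD1 is usually studied as an enzyme that keeps such elements in check. An annotation of release 5 was not used here, so the regions are given by position and no gene is named.

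Called regions along the stretch were frequent and mostly of low fold. The 1533 regions covered 3.14 Mb, or 14.97% of the stretch, which is 73.0 per Mb (69.4 to 76.7, exact 95% Poisson interval, counting error only). Replicate 1 covered 7.27% at 32.4 regions per Mb, and replicate 2 covered 4.11% at 20.5 per Mb. Fold in the combined list had a median of 1.34, with quartiles at 1.30 and 1.39 and a range from 1.11 to 6.47. Of the regions, 1009 (65.8%) lay from 1.3-fold up to 1.5-fold. The median was 1.53-fold in replicate 1 and 1.53-fold in replicate 2, whose highest values were 10.1-fold and 12.1-fold.

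Regions were found along the whole stretch, from 2L:15084-17764 next to the telomere to 2L:21009034-21010762, but unevenly. Divided into 21 full windows of 1 Mb, with each region counted at its midpoint, the stretch held between 27 and 115 regions per window, with a median of 73. The window with most regions, 2L:14000001-15000000, lay beside the window with fewest, 2L:15000001-16000000. The first had 115 regions of the combined list, 53 of replicate 1 and 23 of replicate 2, and 23.7% of its bases were covered by the combined list. The second had 27, 9 and 10 regions in the same lists, and 4.54% of its bases were covered. These were also the windows with most and fewest regions in replicate 1. In replicate 2 the sparsest window was the same, but the windows with most regions were 2L:1-1000000 and 2L:10000001-11000000, with 31 each. Over the 21 windows the counts of the 2 replicates had a Spearman's rho of 0.701, and over the 210 full windows of 100 kb a rho of 0.693. These values are a description, since the windows share the arm, the reference genome and the calling method.

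**Figure D1:**
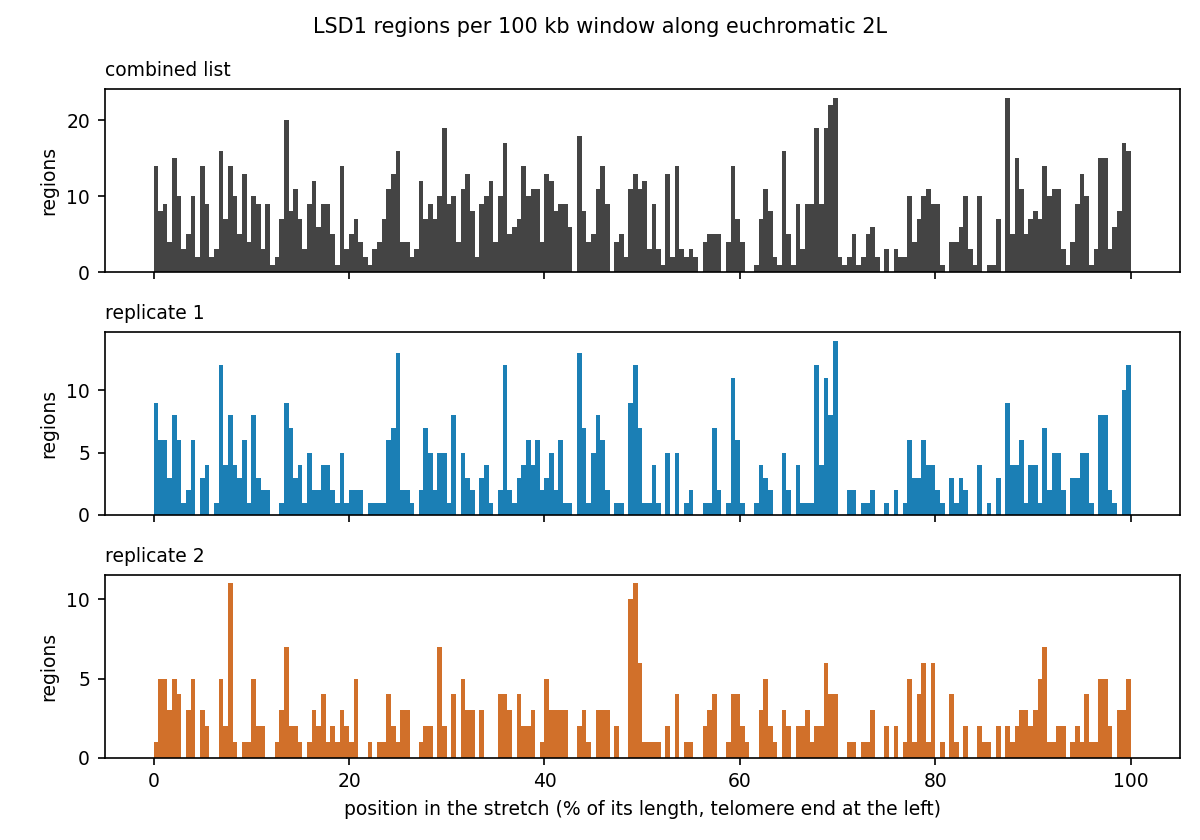
Number of LSD1 regions, by midpoint, in each of 210 windows of 100 kb along the stretch, for the combined list and ChIP replicates 1 and 2, with the position as a percentage of the stretch from the telomere end and a separate vertical scale for each list. The highest counts are 23 (combined), 14 (replicate 1) and 11 (replicate 2), and a crowded stretch just before 70% is followed by a sparse one.

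Taken in steps of 7 Mb, the density changed little but the evenness did. The 7 Mb next to the telomere held 542 regions (77.4 per Mb), the middle 7 Mb 481 (68.7 per Mb) and the 7 Mb nearest the centromere 505 (72.1 per Mb). The 100 kb windows of the first 7 Mb each held at least 1 region, while 6 windows in the middle and 5 in the last held 0. This contrast depends on where the windows start, as gaps longer than 100 kb lay in the first 7 Mb too. The last 7 Mb also had 10 of the 18 windows with 15 or more regions, against 5 in the first 7 Mb and 3 in the middle. The variance of the window counts was 2.71 times their mean in the first 7 Mb, 3.30 times in the middle and 4.94 times in the last.

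Crowded windows consisted of many regions about as weak as those elsewhere. The 18 windows with 15 or more regions held 321 regions, 20.9% of all, in 8.57% of the full windows. Counting only regions at least as wide as the narrowest replicate region (1301 bp) left 6 such windows. The 321 regions of the 18 windows had a median fold of 1.33 against 1.35 elsewhere, and a median width of 1677 bp against 1645 bp. At least 1 replicate overlapped 54.2% of them against 48.6% elsewhere, and both replicates overlapped 14.6% against 19.0%. Only 4 of the 63 regions above 2-fold on the stretch lay in these 18 windows, while 21 lay in 1 cluster outside them. The most crowded were 2L:14600001-14700000 and 2L:18300001-18400000, with 23 regions each. In 2L:14600001-14700000 the regions covered 52.6% of the bases, and replicate 1 had 14 regions there and replicate 2 had 4. In 2L:18300001-18400000 they covered 44.9%, with 9 regions in replicate 1 and 2 in replicate 2. Next came 2L:14500001-14600000 with 22 regions, 2L:2800001-2900000 with 20 and, tied at 19, 2L:6200001-6300000, 2L:14200001-14300000 and 2L:14400001-14500000. Replicate 1 had between 5 and 14 regions in these 7 windows, with a mean of 3.23 over all 210 windows. Replicate 2 had 7 regions in 2L:2800001-2900000, 6 in 2L:14400001-14500000 and between 2 and 4 in the other windows, with a mean of 2.05 over all 210.

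Long stretches without a region also lay along the arm. On the grid used, 100 kb windows without one occurred only beyond the first 7 Mb. Gaps longer than 100 kb also lay in the first 7 Mb, such as 2L:4611753-4778929 (167 kb) and 2L:1219375-1361995 (143 kb). No combined-list region had its midpoint in 11 of the 210 windows of 100 kb, and 9 of these 11 also had 0 in both replicates. With regions of at least 1301 bp only, 20 windows had 0. The longest gap was 2L:12679211-12973857, of 295 kb. It held 0 regions of replicate 1 and 1 region of replicate 2, at 1.44-fold. Second was 2L:15538743-15744805, of 206 kb, in which all 3 lists had 0 regions. The next were 2L:11615777-11804135 (188 kb), 2L:17782173-17962229 (180.1 kb) and 2L:12177907-12351317 (173 kb), each touched by 1 region of 1 replicate, at 1.24-fold to 1.52-fold. With the 3 lists joined, the longest gap that held no region was 2L:12705285-12973857, of 269 kb. An overlapping gap was also the longest of replicate 1 (2L:12619347-12973908, 355 kb) and the third longest of replicate 2 (2L:12705285-13020233, 315 kb). The longest gap of replicate 2, 2L:7050395-7406907 (357 kb), was different: 30 combined-list regions of at most 1.43-fold lay wholly inside it. A gap holds no called region and says nothing of the reads there.

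Between these extremes, neighbouring regions were close together. The 1532 gaps between neighbours had a median of 4122 bp, with quartiles at 994.5 and 12569.5 bp and a mean of 11652 bp. Gaps under 1 kb made up 25.1% of them, while the 70 gaps over 50 kb took up 6.48 Mb, or 30.8% of the stretch. In replicate 1 the median gap was 8492 bp and in replicate 2 it was 24366 bp, as fewer regions leave longer gaps. A neighbour within 1 kb was found for 628 of the 1533 regions (41.0%), which formed 244 runs, and the other 905 stood alone. Median width was 1808 bp for regions in runs and 1547 bp for those that stood alone, and both had a median fold of 1.34.

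**Figure D2:**
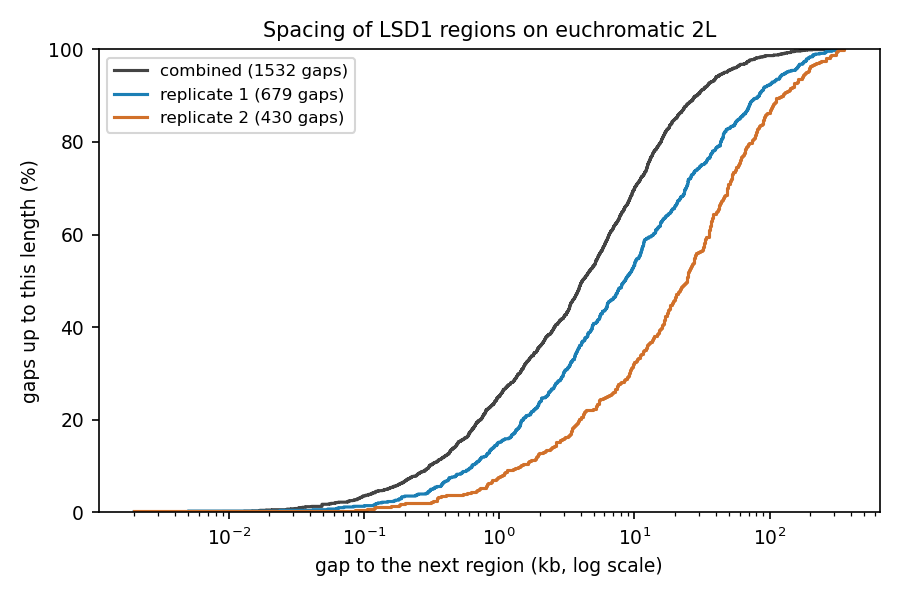
Cumulative share of gaps between neighbouring regions on the stretch by gap length in kb (log scale), for the combined list (1532 gaps), replicate 1 (679) and replicate 2 (430). The curves lie in the order combined, replicate 1, replicate 2, with medians of 4122, 8492 and 24366 bp.

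The longest runs covered most of their span. The run at 2L:5230242-5260156 had 10 regions that covered 86.7% of its 29.9 kb, with 1.58-fold as its highest value. Replicate 1 had 8 regions in it and replicate 2 had 1. Next came 4 runs of 7 regions. The widest of them, 2L:14489442-14514366 (24.9 kb), met 6 regions of replicate 1 and 4 of replicate 2. The second widest, 2L:20310084-20334256 (24.2 kb), met 5 regions of replicate 1 and 3 of replicate 2. There were 20 runs of 5 or more regions, with 116 regions in all. Replicate lists had shorter runs, of at most 4 regions in replicate 1 and 3 in replicate 2.

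Most regions were narrow. Their median width was 1653 bp, with quartiles at 1213 and 2205 bp and a range from 1001 to 16903 bp. Regions of 5 kb or more numbered 64 and made up 14.9% of the covered bases, and 10 were wider than 10 kb. Width and score went together more weakly in the combined list (Spearman's rho 0.189 across 1533 regions) than in replicate 1 (0.602 across 680) or replicate 2 (0.604 across 431). These are correlations across regions of the same libraries.

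The 5 widest regions lay below 2-fold in the combined list, and replicate regions covered each of them only in part. The widest, 2L:16704834-16721736 (16.9 kb), had 1.66-fold in the combined list. It held 3 regions in each replicate, which covered 94.4% of it in replicate 1 and 41.6% in replicate 2. The second, 2L:478116-491868 (13.8 kb, 1.68-fold), was 1 region over 93.8% of its length in replicate 1, but 3 regions over 66.4% in replicate 2. The third, 2L:5294716-5307470 (12.8 kb, 1.42-fold), was covered to 63.6% and 49.0%, and the fourth, 2L:1630268-1642040 (11.8 kb, 1.40-fold), to 61.8% and 25.5%, in the same order. The fifth, 2L:10750416-10761212 (10.8 kb, 1.34-fold), had 3 regions over 47.4% of its length in replicate 1 and 0 in replicate 2. In each of these 5 regions replicate 1 covered the larger share. Over the stretch, 43 combined-list regions held 2 or 3 regions of replicate 1, and 19 held 2 or 3 of replicate 2. The reverse was rarer: 22 regions of replicate 1 and 3 of replicate 2 reached over 2 combined-list regions.

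Strong regions were rare. Above 2-fold were 63 of the 1533 regions (4.11%, against 4.56% of the whole combined list), and 13 exceeded 4-fold. Without the 2 Mb at the centromere end, the share was 3.26% on 2R, 2.63% on 3L, 2.46% on 3R and 4.93% on X. The 63 regions had a median width of 2601 bp, against 1599 bp for the other regions of the stretch. In the replicate lists 66 regions of replicate 1 and 71 of replicate 2 exceeded 2-fold, and every one of them overlapped a region of the other replicate and of the combined list. The matching shares of the whole replicate lists were not worked out, so whether this is particular to 2L is not known.

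The strongest region held by both replicates was 2L:19154250-19161906, 7657 bp wide. Its fold was 6.47 in the combined list, where it ranked 31 of 9018. Replicate 1 gave it 6.00-fold and replicate 2 gave it 8.18-fold. Second was 2L:16421734-16424236 (2503 bp), with 6.42-fold in the combined list. Its fold was 5.68 in replicate 1 and 7.56 in replicate 2. Their regions ranked 22 and 24 of 3951 in replicate 1, and 16 and 22 of 2607 in replicate 2. Each list has its own scale, so folds are not compared between lists.

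The third, 2L:9199752-9208396, had the highest enrichment of the stretch in either replicate. Its 8645 bp had 6.25-fold in the combined list. It reached 10.1-fold in replicate 1 (2L:9202263-9206680) and 12.1-fold in replicate 2 (2L:9202379-9206639), where the called region covered 49.3% of the combined one. These ranked 5 of 3951 and 4 of 2607 in their whole lists. Another such region was 2L:19570294-19577594, where the combined list had 4.85-fold, replicate 1 5.16-fold and, over its part 2L:19574409-19577410, replicate 2 had 9.99-fold, rank 10 of 2607.

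The other 6 of the 10 strongest were between 2467 and 4019 bp wide. The combined list gave 5.80-fold for 2L:6820648-6823224, which had 5.46-fold in the list of replicate 1 and 6.49-fold in that of replicate 2. For 2L:6422564-6425514 the 3 folds were 4.62, 5.27 and 4.77, and for 2L:13020220-13022688 they were 4.61, 4.43 and 4.96, with the lists in the same order. The second of these lay at the centromere-side end of the gap 2L:12705285-13020233 of replicate 2. The remaining 3, at 2L:10371182-10373648 (5.20-fold), 2L:10219596-10222550 (4.79-fold) and 2L:10262386-10266404 (4.34-fold), lay in 1 cluster with other strong regions.

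Of the 63 strong regions, 21 lay in that cluster, which was singled out after its values were seen. It spanned 218 kb at 2L:10219596-10437116, or 1.04% of the stretch, and held 27 regions, of which 21 exceeded 2-fold. These 21 had folds between 2.09 and 5.20 and widths between 2221 and 4955 bp, and both replicates held every one of them. The other 6 regions of the cluster had 1.24-fold to 1.86-fold, and 2 of them were held by neither replicate. Replicate 1 had 26 regions in the cluster, 22 of them above 2-fold, with a median of 2.71-fold against 1.52-fold over the rest of the stretch. Replicate 2 had 25 regions, 21 of them above 2-fold, with a median of 2.97-fold against 1.52-fold.

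The first and the last strong region set the limits of the cluster. In the 100 kb on its telomere side the combined list had 4 regions of at most 1.45-fold, replicate 1 had 0 and replicate 2 had 1, at 1.33-fold. In the 100 kb on its centromere side the combined list had 10 regions of at most 1.41-fold, replicate 1 had 3 of at most 1.65-fold and replicate 2 had 2 of at most 1.62-fold. Inside, the regions did not merge: they covered 35.0% of the cluster and stood between 249 and 24221 bp apart, with a median gap of 3402 bp. In the combined list, full windows of 100 kb had a median of 7 regions and an upper quartile of 10. At the cluster, 2L:10200001-10300000 held 11 regions and 2L:10300001-10400000 held 13. These counts were above that quartile but below the limit set for crowded windows. In replicate 2 the same windows held 10 and 11 regions, and 2L:1600001-1700000, also with 11, was the other window of that list with 10 or more. In replicate 1 the windows 2L:10200001-10300000 and 2L:10300001-10400000 held 9 and 12 regions, and other windows held more, up to 14 in 2L:14600001-14700000.

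**Figure D3:**
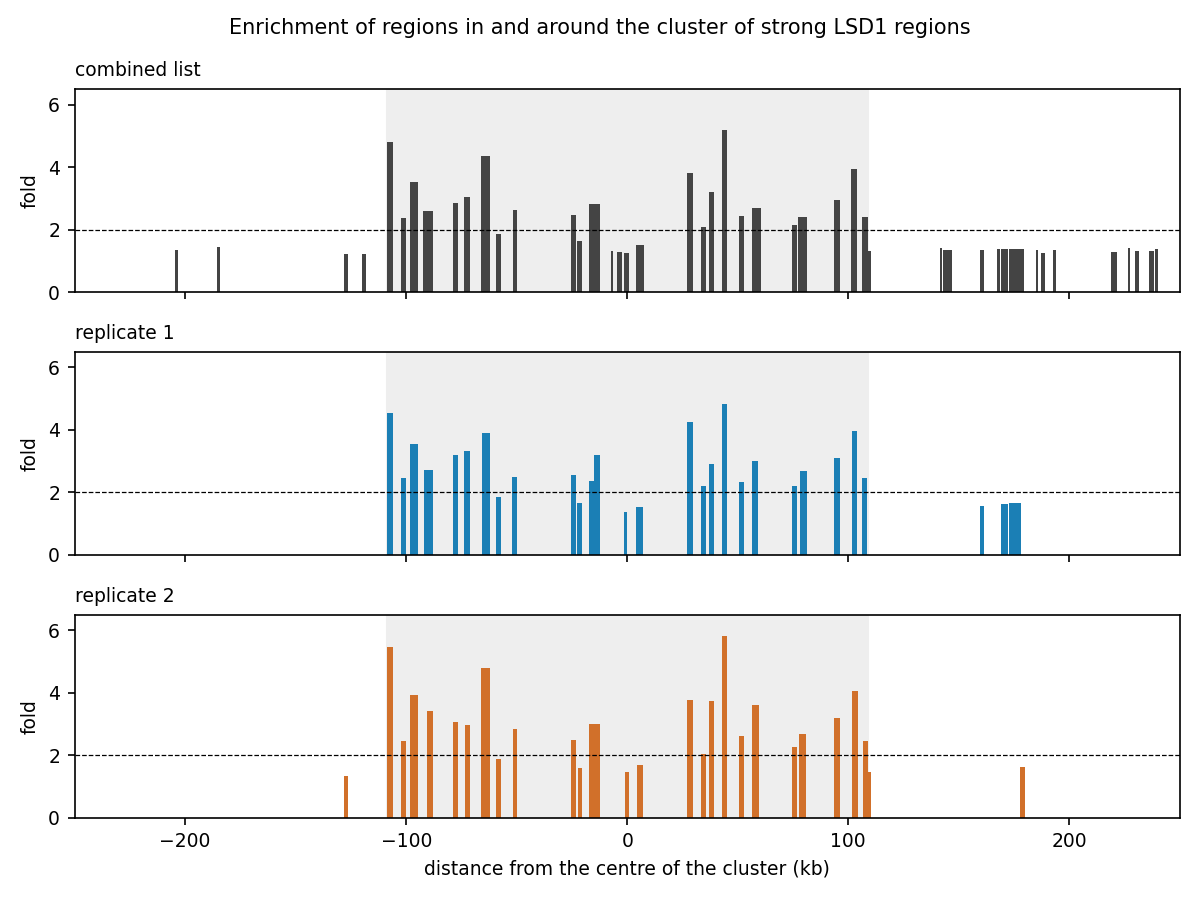
Fold of each region within 250 kb of the centre of the cluster, for the combined list and replicates 1 and 2, with bars as wide as the regions, the distance from the cluster's centre in kb, the cluster shaded and 2-fold as a dashed line. Above the line are 21 (combined), 22 (replicate 1) and 21 (replicate 2) regions, within the shaded span in each list, and flanking regions stay below it.

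No other 250 kb of the stretch held more than 5 regions above 2-fold, the number found from 2L:16266500 on. On the other large arms, each without the 2 Mb at its centromere end, the highest number in 250 kb was 11 on 2R, 3 on 3L, 4 on 3R and 6 on X. Without the 27 regions of the cluster, 42 of 1506 regions (2.79%) exceeded 2-fold. Each score corresponds to a constant times a ratio of 2 whole numbers, given in lowest terms, so both are lower bounds, and no file states what they are. The second number per kb of region had a median of 276 in the cluster and 234 over the rest of the stretch in the combined list, 126 and 109.9 in replicate 1, and 158 and 126 in replicate 2. The first number per kb had medians of 213 and 148, 151 and 94.1, and 145 and 78.2 in the same order. Fold is built from these numbers and the cluster was singled out by its folds, so a higher first number there is partly built in. The part of both numbers in the folds of the cluster was not tested.

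Of the 63 strong regions, 61 (96.8%) were held by both replicates and the other 2 by neither. In the whole combined list both replicates held 78.8% of the 411 regions above 2-fold, and on the other large arms they held between 83.8% and 97.8%. These 2 were 2L:2298206-2299228, of 1023 bp and 6.38-fold, and 2L:2294004-2295042, of 1039 bp and 5.53-fold, the third and the sixth highest scores of the stretch. They were neighbours, 3163 bp apart, and both were narrower than the narrowest replicate region, of 1301 bp. Their ratios in lowest terms were 3 to 1 and 13 to 5. The next highest region that neither replicate held was 2L:9393386-9394502, at 1.95-fold and 1117 bp.

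How far the combined regions were held by the replicates was asked by overlap of at least 1 bp. The combined list is that of the replicate set, so overlap with the replicate lists is not independent support. At least 1 replicate held 763 of the 1533 regions, or 49.8% (exact 95% binomial interval 47.2% to 52.3%), against 47.9% of the whole combined list. Both replicates held 277 regions (18.1%, against 18.3% of the whole list), replicate 1 alone 361 (23.5%, against 21.8%), replicate 2 alone 125 (8.15%, against 7.81%) and neither 770 (50.2%, against 52.1%). Counted singly, replicate 1 held 41.6% (40.1% of the whole list) and replicate 2 held 26.2% (26.1%). These shares are near those of the whole list. The 770 regions that neither held made up 33.6% of the covered bases, and over all regions 45.7% of the covered bases lay outside every replicate region. Median width was 2601 bp for regions held by both, 1955 bp for those of replicate 1 alone, 1779 bp for those of replicate 2 alone and 1255 bp for those held by neither. The matching median folds were 1.49, 1.33, 1.32 and 1.34.

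Wide regions were held more often than narrow ones. Of the 465 regions under 1301 bp, 52 (11.2%) were held by a replicate, 0 of them by both. From 1301 up to 2000 bp, 45.2% of 577 regions were held by at least 1 replicate and 3.47% by both. From 2000 up to 3000 bp these shares were 87.8% and 47.3% of 294 regions, and from 3000 up to 5000 bp 96.2% and 54.1% of 133. The 64 regions of 5 kb or more were each held by a replicate, and 46 of them (71.9%) by both. The whole list had nearly the same shares held by at least 1 replicate, 10.3%, 42.3%, 85.2%, 94.3% and 99.5% from the narrowest class to the widest, so the trend with width is that of the whole list. A wide region also has more room to meet another.

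By fold, the share held rose steeply above 1.4-fold. The combined list is that of the set of both replicates, so such a rise is built in to an unknown degree. Below 1.3-fold it was 41.7% for at least 1 replicate and 3.41% for both, from 1.3 up to 1.35-fold 44.0% and 5.47%, and from 1.35 up to 1.4-fold 43.9% and 10.2%. From 1.4 up to 1.5-fold it was 59.0% and 39.3% of 178 regions. From 1.5 up to 2-fold it was 91.2% and 87.5% of 80 regions, and above 2-fold both replicates held 96.8% of the 63. In the whole list both replicates held 3.21%, 5.04% and 9.87% in the 3 lowest of these classes, near the shares on 2L, and 29.5%, 77.6% and 78.8% in the 3 highest. Along the arm, the share held by at least 1 replicate was between 37.2% at 2L:7000001-8000000 and 68.8% at 2L:1-1000000, and the share held by both was highest, at 38.6%, in 2L:10000001-11000000, the window of the cluster.

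**Figure D4:**
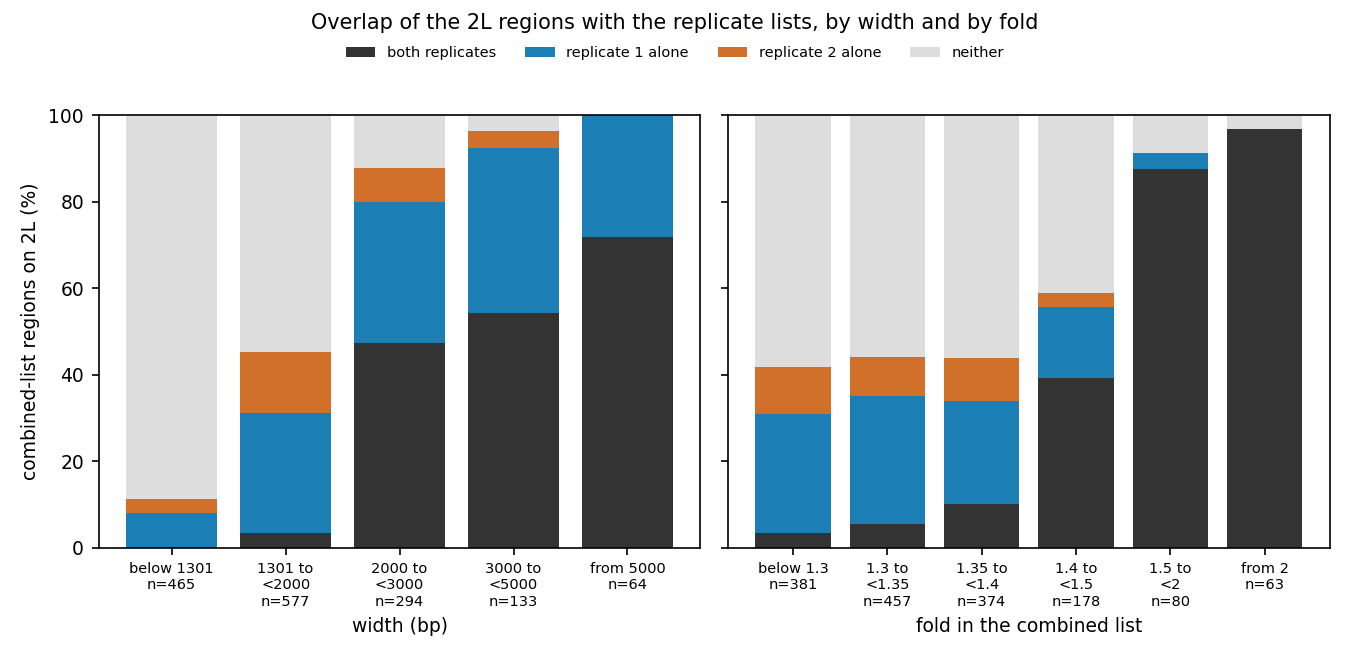
Percentage of the 1533 regions held by both replicates, by replicate 1 alone, by replicate 2 alone or by neither, in classes of width (bp, left) and of fold in the combined list (right), with the number of regions under each bar. The share held by both is 0% below 1301 bp and 71.9% from 5 kb on, and 3.41% below 1.3-fold and 96.8% above 2-fold.

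Between the replicates, 292 of the 680 regions of replicate 1 (42.9%, against 43.7% of its whole list) overlapped replicate 2, and 296 of the 431 regions of replicate 2 (68.7%, against 68.6%) overlapped replicate 1. Both replicates covered 0.582 Mb, or 32.2% of the 1.81 Mb that either covered. Regions of replicate 1 that replicate 2 also had were wider, with a median of 2172 bp against 1713.5 bp for the others, and had 1.60-fold against 1.51-fold. In replicate 2 the widths were 2046.5 and 1439 bp, and the folds 1.57 and 1.49. The combined list overlapped 667 regions of replicate 1 (98.1%, against 97.5% of its whole list) and 423 of replicate 2 (98.1%, against 96.9%). This overlap is not independent either, as the combined list is that of the replicate set. The combined list had no region at 13 regions of replicate 1 and 8 of replicate 2. These were narrow, with a median width of 1412 bp against 1986 bp for the overlapped regions of replicate 1, and 1350.5 bp against 1901 bp in replicate 2. Their median fold was 1.48 against 1.53 in replicate 1 and 1.54 against 1.53 in replicate 2. None of them was held by the other replicate. The highest were 2L:7554520-7555896 in replicate 1, at 1.67-fold, and 2L:10763565-10764879 in replicate 2, at 1.63-fold. After them came 2L:19374257-19375572 (1.58-fold) and 2L:9502030-9503425 (1.54-fold) in replicate 1, and 2L:11247612-11249046 and 2L:7694180-7695542 (both 1.58-fold) in replicate 2.

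Where each replicate had 1 region for the same combined region, the replicate regions mostly lay close together. For 228 combined-list regions, each replicate had exactly 1 region, which met no other combined-list region. The centres of the replicate regions lay a median of 109 bp apart, with quartiles at 30.9 and 361 bp, and at most 500 bp apart in 180 of the 228. The largest distance was 4417 bp. In 227 the replicate regions overlapped each other. Meeting the same combined region already brings them near each other, so this closeness is partly built in. Regions held by both replicates with split or shared matches were left out. The combined region was wider than both in 198 cases, and the median widths were 2446 bp (combined), 2159.5 bp (replicate 1) and 2047.5 bp (replicate 2). Across these regions the scores of the replicates had a Spearman's rho of 0.758. This correlation is a description across regions that share a genome and a calling method.

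**Figure D5:**
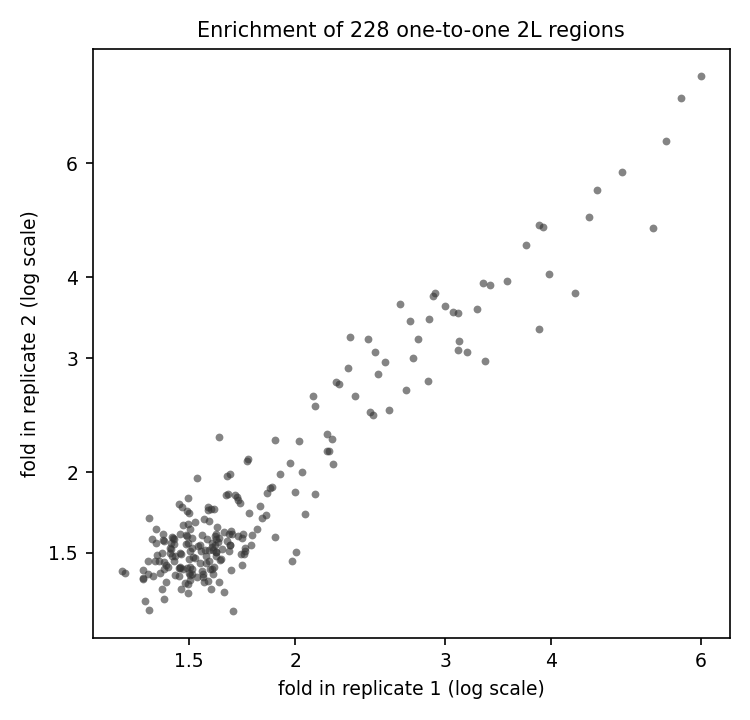
Fold in replicate 2 against fold in replicate 1 for the 228 combined-list regions that meet exactly 1 region in each replicate (both axes on a log scale, 1 point per region). Most points lie in a cloud around the medians of 1.61-fold in replicate 1 and 1.58-fold in replicate 2, and regions high in one replicate are high in the other.

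Beside the other large arms, each without the 2 Mb at its centromere end, 2L had the smallest covered share and the longest gap of the combined list, and only 3R had a lower density there. The replicate lists gave another order: 2L was covered to 7.27% in replicate 1, above the 6.97% of X, and to 4.11% in replicate 2, above the 3.61% of 3L. Density in replicate 1 was 32.4 per Mb on 2L, with 30.6 on 3R and 30.7 on X below it, and in replicate 2 it was 20.5 on 2L, with 18.4 on 3L below it. In the combined list, the density of 73.0 regions per Mb (69.4 to 76.7) compares with 88.1 on 2R (84.0 to 92.4), 77.7 on 3L (74.1 to 81.4), 70.7 on 3R (67.5 to 74.0) and 73.4 on X (69.8 to 77.3). Covered bases were 14.97% on 2L, 19.5% on 2R, 16.1% on 3L, 15.3% on 3R and 15.2% on X. Median widths were 1653 bp on 2L and between 1633 and 1682 bp on the others, and median folds 1.34 on 2L and between 1.34 and 1.40. The longest gap was 295 kb on 2L, 199.8 kb on 2R, 194 kb on 3L, 174 kb on 3R and 178 kb on X. Regions held by at least 1 replicate were 49.8% on 2L, 49.6% on 2R, 44.6% on 3L, 47.1% on 3R and 48.4% on X. Each arm is 1 sequence, so these differences have no replicate and were not tested.

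The 2 Mb left out at the centromere end were sparser than the stretch, but the last full 1 Mb window of the stretch was not. That window, 2L:20000001-21000000, held 94 regions, against a median of 73 per window. The 2 Mb left out had 84 regions, or 42.0 per Mb (33.5 to 52.0), with 7.69% of the bases covered. Of these regions 8 (9.52%) exceeded 2-fold, against 4.11% on the stretch. At least 1 replicate held 38.1% of the 84 regions. Replicate 1 had 16.0 regions per Mb there and replicate 2 had 10.5. The limit itself cut through a row of weak regions. Just inside it lay 2L:21005138-21006250 (1.32-fold), 2L:21006428-21008204 (1.23-fold) and 2L:21009034-21010762 (1.30-fold), of which replicate 1 held the second. Just outside lay 2L:21014996-21016648 (1.32-fold), 2L:21017366-21018382 (1.31-fold) and 2L:21018942-21020378 (1.30-fold), held by neither replicate.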

How the data were processed

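The deposited files were 3 lists of regions, 1 for each of the 2 LSD1 ChIP samples and 1 combined list. The labels name 1 input for each replicate number, and the inputs had no list of their own. Bowtie 0.12.7 was used, per the submitters' processing notes, and positions are on FlyBase release 5 of the genome, per the file headers. The caller, its threshold and how the combined list was made are among the steps not given in the sources used here. The authors' score per region is on a log2 scale: in each deposited list 100% of scores equal the log2 of 1 constant (2.13 in the combined list, 1.80 in replicate 1, 2.51 in replicate 2) times a quotient of 2 integers (denominators up to 20000, relative tolerance 1e-12), against at most 0.253% with natural or base 10 logarithms. On 2L no combined region was under 1001 bp wide, and no replicate region under 1301 bp.

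Regions were called held when they shared at least 1 bp with a replicate region. Windows counted midpoints, in 210 full windows of 100 kb and 21 of 1 Mb. No p-value is given: regions of a library are not replicates, and with 1 list per ChIP the design holds no test between groups. Whether the replicates are separate collections of embryos is not stated. Regions named are the 10 highest-scoring held by both replicates, the 5 widest, the 5 longest gaps, the 5 most crowded 100 kb windows (and the 2 tied with the fifth, added after their values were seen), the 1 Mb windows with most and fewest regions, the 3 longest runs, the 3 on either side of the limit, and the 3 highest held by neither replicate or missing from the combined list. Others were named after their values were seen. The regions and these rules were chosen with earlier results of these data known. Overlap, gap, window and ratio procedures were tested on simulated data. Alternatives were other limits at the centromere end, a minimum width, the higher-scoring 50%, merging under 200 bp, shifted windows, 50% overlap, lists of equal length and either replicate alone. Values were computed with pandas 2.3.3, numpy 2.4.6 and scipy 1.17.1 under Python 3.11.15, and drawn with matplotlib 3.10.9.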

Additional observations from a re-analysis of the deposited data

How the results depend on the processing

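Over 39 alternatives to 13 results, 17 stayed within the interval of the value, within 1.5 times a count or the longest gap, or, for the covered share, within the 2.23 points SD over the replicates. Leaving out 1 or 3 Mb at the centromere end was among these for each result it was applied to. Requiring 1301 bp, the narrowest width in the replicate lists, gave a covered share of 12.5%, a median width of 1958 bp, a median gap of 6061 bp, 20 empty and 6 dense windows of 100 kb, and shares held of 66.6% by at least 1 replicate and 25.9% by both. The higher-scoring 50% of the whole list had 662 regions on the stretch, a median width of 2032 bp, and shares held of 58.6% and 36.0%. Merging regions under 200 bp apart gave 68.1 regions per Mb, a median gap of 5033 bp and a median width of 1715 bp. With 50% of the region covered, shares held were 45.9% and 14.1%, and 37.6% of replicate 1 regions were held by replicate 2. With the 2607 highest-scoring regions of each replicate, replicate 1 held 52.0% of replicate 2 and replicate 2 held 50.5% of replicate 1. The share held by at least 1 replicate was between 26.2% and 41.6% when 1 replicate was left out, replicate 1 being the one whose loss gave 26.2%. Without the cluster of strong regions, chosen after seeing the data, 2.79% of regions exceeded 2-fold. The cause was not tested in any of these cases. No paired analysis was possible because inputs have no list of their own and no result comes from a test. Unknown depth limits what the absence of a region means.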
